A study of Mus musculus with 12 samples.

Results

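Ribosomal proteins of the cytosolic ribosome were followed by 69 array probes for 52 genes in hypertrophic cartilage of mice that carry a misfolding collagen X, lack active XBP1, or have both defects. The probes were those whose annotated symbol is an Rpl, Rps or Rplp gene, without pseudogenes and without the S6 kinase genes, and whose detection score was above 0.95 on at least 3 of 12 arrays. Symbols were available for 10074 of the 45281 probes on the array, all within the authors' own table filtered by detection. Ribosomal protein probes outside it could not be found, so the share that passed was largely set beforehand. In all 70 probes for 53 genes had such a symbol, and the 69 that passed stood among 12023 probes tested, of which 9866 carried 1 gene symbol. The large subunit was covered by 42 probes for 31 genes and the small subunit by 27 probes for 21 genes. The 1 probe that did not pass, for Rpl17, was detected on 2 arrays and ranged from 6.80 to 7.66 on the normalized log2 scale, while the passing probe detected least often, ILMN_2688863 for Rpl21, was detected on 4. Rpl5 and Rpl11, which bind MDM2, had no annotated probe and were not analysed here.

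Hypertrophic cartilage was dissected from 1 tibial growth plate (proximal) of each mouse, at 2 weeks of age and on a mixed strain background, and its RNA was amplified before hybridization, with 3 mice and 3 arrays for each of 4 genotypes. The hypertrophic zone is the layer of enlarged chondrocytes that secretes collagen X. ColXN617K mice carry a knock-in asparagine-to-lysine substitution in collagen X, in Xbp1CartΔEx2 mice a Cre recombinase active in the Col2a1-expressing chondrocyte lineage removes exon 2 of Xbp1, and C/X mice combine the 2 alleles, with that of collagen X on both chromosomes. The wildtype mice had neither. Cells of other lineages in the dissected tissue would keep an intact Xbp1.

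Cytosolic ribosomes consist of a small subunit, which decodes the messenger RNA, and a large subunit, which joins the amino acids, and each subunit holds 1 copy of most of its proteins. The messenger RNAs of ribosomal proteins start with a run of pyrimidines (the 5′ terminal oligopyrimidine, or TOP, tract), through which their translation follows nutrient and mTOR signalling. An unfolded protein response in the endoplasmic reticulum lowers translation through PERK and alters transcription through XBP1, ATF6 and ATF4. The array measures messenger RNA and not the protein or its translation.

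The arrays were read on a linear intensity scale that reached 30075 on the brightest probe, and were background-corrected and quantile-normalized to log2 values before any comparison. Between 17.1% and 28.4% of the probes on an array were detected, with ColXN617K array 3 and C/X array 3 the lowest at 17.1% and 17.2%. Arrays within a genotype correlated at 0.957 or more in wildtype and 0.960 or more in Xbp1CartΔEx2, but at as little as 0.867 in ColXN617K and 0.915 in C/X, so results that turned without those 2 arrays are marked. Without both, Rpl30 in ColXN617K versus wildtype (-0.88), Rpl22 in C/X versus Xbp1CartΔEx2 (0.97) and Rps15 in ColXN617K versus C/X (0.95) lost the calls given later, and the other 27 calls were kept. The Xbp1 probe read 10.49, 11.03 and 10.67 in wildtype and 10.94, 10.82 and 10.96 in Xbp1CartΔEx2. Where that probe lies relative to exon 2 is not given in the sources used here, so it is no check of the deletion.

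Most ribosomal protein probes were bright, with mean levels over the 12 arrays from 6.98 to 14.38 and a median of 12.13. Detection was complete on 57 of the 69 probes, and 4 probes, 2 of them for Rpl21 and 1 each for Rpl24 and Rpl37, were detected on 5 arrays or fewer. Of the 69 probes, 21 for 20 genes had a mean within 1 log2 unit of the brightest tested probe (14.46), which is called near the top of the scale here. A change is called where the fold difference was at least 2 and the limma p-value, adjusted by Benjamini-Hochberg over all 12023 tested probes, was at most 0.01. Fold changes are log2 differences, given with the standard error of the fit to all 12 arrays.

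**Figure D1:**
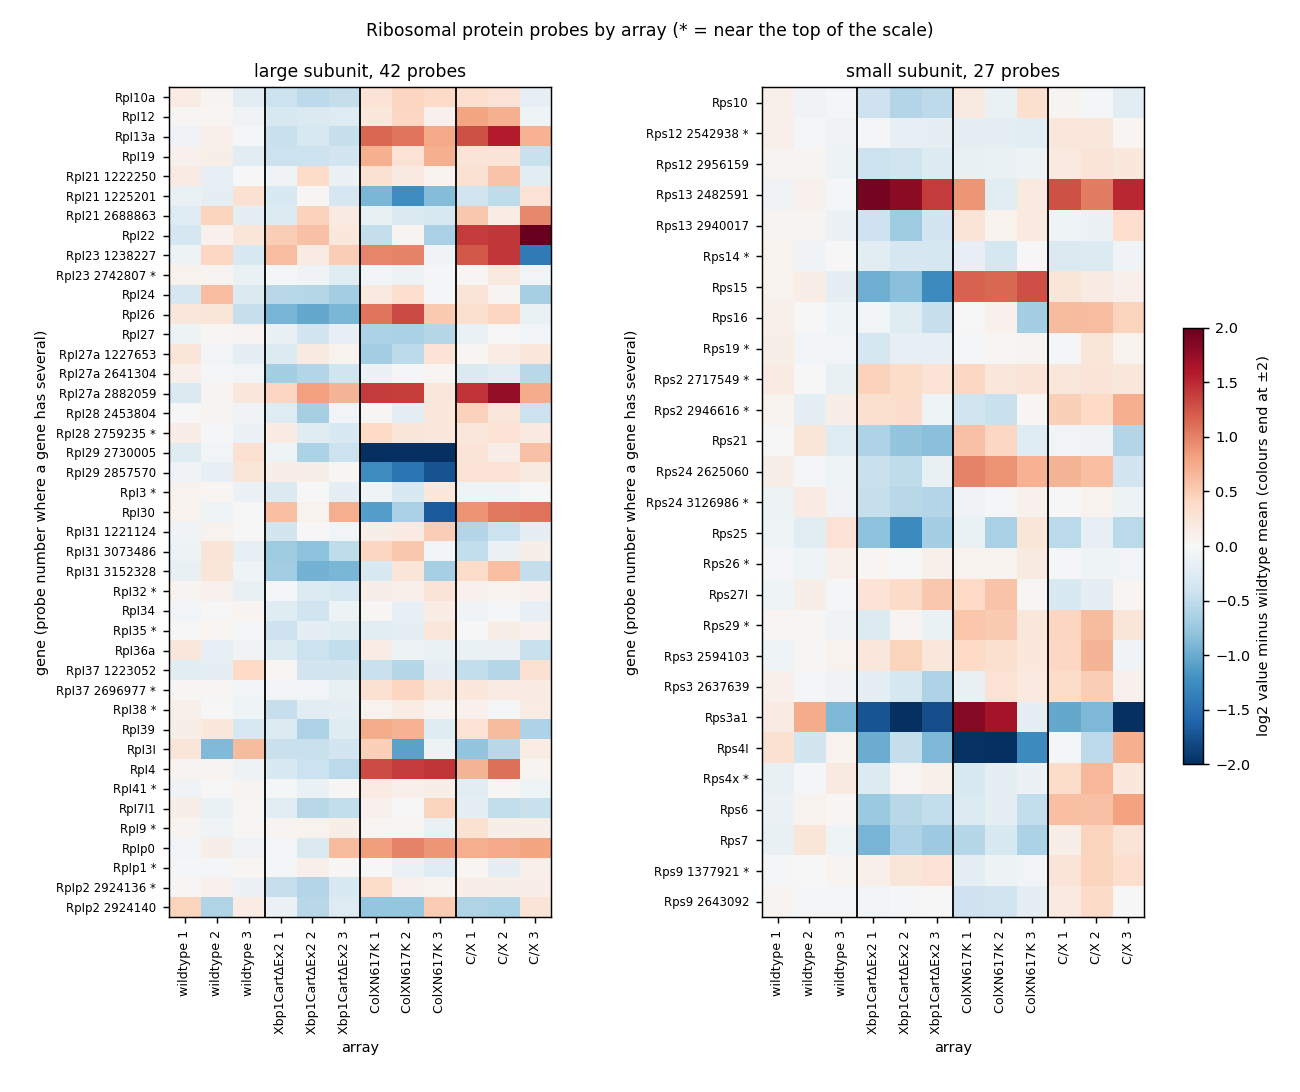
Each row is a ribosomal protein probe and each column an array, with the colour giving its normalized log2 value minus the mean of the 3 wildtype arrays. The Rpl29 and Rps4l rows are blue in ColXN617K, the Xbp1CartΔEx2 columns are mostly pale blue, and rows near the top of the scale (asterisk) are close to white.

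As a group the probes were lowest in Xbp1CartΔEx2. Their mean was 11.59, 11.59 and 11.54 on the wildtype arrays, 11.35, 11.31 and 11.35 on the Xbp1CartΔEx2 arrays, 11.64, 11.59 and 11.55 on the ColXN617K arrays, and 11.76, 11.81 and 11.63 on the C/X arrays. All 3 Xbp1CartΔEx2 arrays thus lay below all arrays of the other genotypes, all 3 C/X arrays lay above all wildtype arrays, and ColXN617K overlapped wildtype. The large subunit mean was 11.18 ± 0.02 (SD, n = 3) in wildtype and 10.97 ± 0.03 in Xbp1CartΔEx2, and the small subunit mean was 12.18 ± 0.05 and 11.90 ± 0.01. In the unnormalized intensities the 69 probes took 3.13% to 3.17% of the summed intensity of the tested probes in wildtype, 2.58% to 2.66% in Xbp1CartΔEx2, 3.12% to 3.30% in ColXN617K and 2.74% to 3.02% in C/X. The C/X arrays were therefore above wildtype in the mean log2 value and below it in the share of intensity. The share of detected probes was 17.3% to 17.7% in wildtype and 19.6% to 23.1% in Xbp1CartΔEx2, and its part in the difference between those genotypes was not tested.

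**Figure D2:**
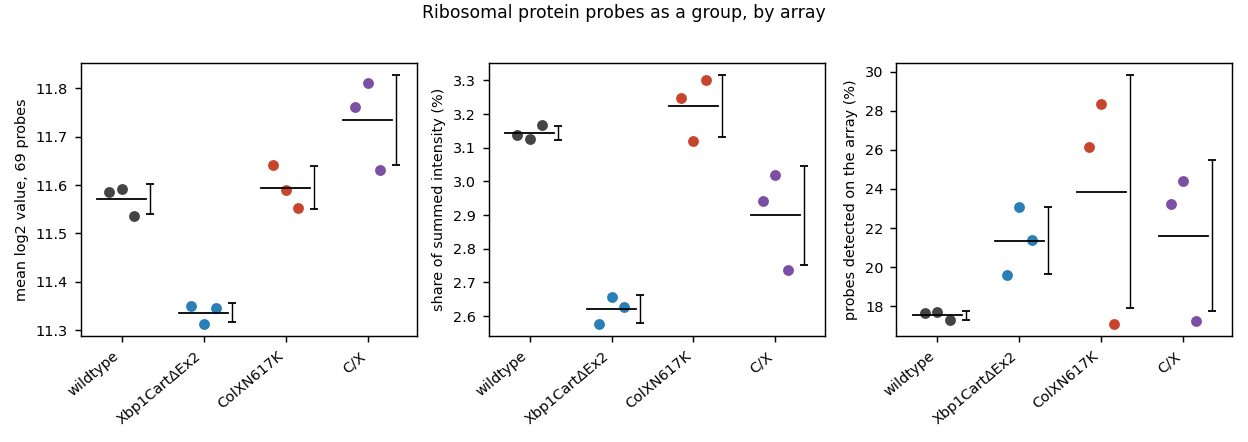
Points are arrays by genotype, with the mean (line) and SD (bar) of 3, for the mean log2 value of the 69 probes, their share of the summed intensity, and the share of all probes detected on the array. The Xbp1CartΔEx2 arrays, at 11.31 to 11.35 and at 2.58% to 2.66%, lie below the others in the first and second panels.

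The comparisons with wildtype ask what each defect changes, C/X against Xbp1CartΔEx2 and ColXN617K against C/X ask what the collagen mutation does without XBP1 and what XBP1 adds under it, and the interaction asks whether the effect of the mutation depends on XBP1. These comparisons share arrays, so values are set side by side and no overlap between them is read as a result. The median difference of the 69 probes was -0.25 in Xbp1CartΔEx2 versus wildtype, where it was 0.01 over all tested probes. The difference was below 0 for 52 of the 69, with a median of -0.24 for the large and -0.30 for the small subunit. Without any overlap between the arrays 32 of the 69 were lower in Xbp1CartΔEx2, which is 46.4%, against 17.8% of all tested probes. In C/X versus Xbp1CartΔEx2 the median was 0.36 (all tested probes 0.05), at 0.31 for the large and 0.46 for the small subunit. The arrays did not overlap and were higher in C/X for 36 of the 69 probes, or 52.2%, against 23.1% of all. In C/X versus wildtype the median was 0.14 (all tested probes 0.02), with 46 of 69 above 0, and in ColXN617K versus wildtype it was 0.02 (0.00), with 36 of 69 above 0. In ColXN617K versus C/X the median was -0.02 (-0.02), and for the interaction it was 0.27 (0.01). In the other comparisons the arrays did not overlap for 18 probes higher and 12 lower in ColXN617K versus wildtype (all tested probes 21.7% and 19.1%), 19 and 4 in C/X versus wildtype (24.0% and 19.6%), and 14 and 19 in ColXN617K versus C/X (14.7% and 15.3%). Against the direction of the group, 7 were higher in Xbp1CartΔEx2 than in wildtype (2280 of the 12023 tested) and 3 lower in C/X than in Xbp1CartΔEx2 (21.2%). Under scaling of each array to its median in place of quantile normalization the median of all tested probes itself moved by up to 0.77, and relative to it the group stood at -0.33 in Xbp1CartΔEx2 versus wildtype, 0.18 in C/X versus Xbp1CartΔEx2 and 0.18 in the interaction, the same directions, but at -0.10 in C/X versus wildtype and -0.03 in ColXN617K versus wildtype, where the sign turned, and at 0.32 in ColXN617K versus C/X. Only 3 of the 30 calls described below were kept under that scaling, Rps15 and Rpl29 on ILMN_2730005 in ColXN617K versus wildtype and the latter in ColXN617K versus C/X. At an adjusted p of 0.05 and no fold minimum 13 of 69 probes passed in ColXN617K versus wildtype (all tested probes 30.1%), 7 in C/X versus wildtype (25.7%), 4 in Xbp1CartΔEx2 versus wildtype (7.14%), 18 in C/X versus Xbp1CartΔEx2 (26.3%), 16 between ColXN617K and C/X (1809 of the 12023 tested) and 7 in the interaction (7.45%).

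**Figure D3:**
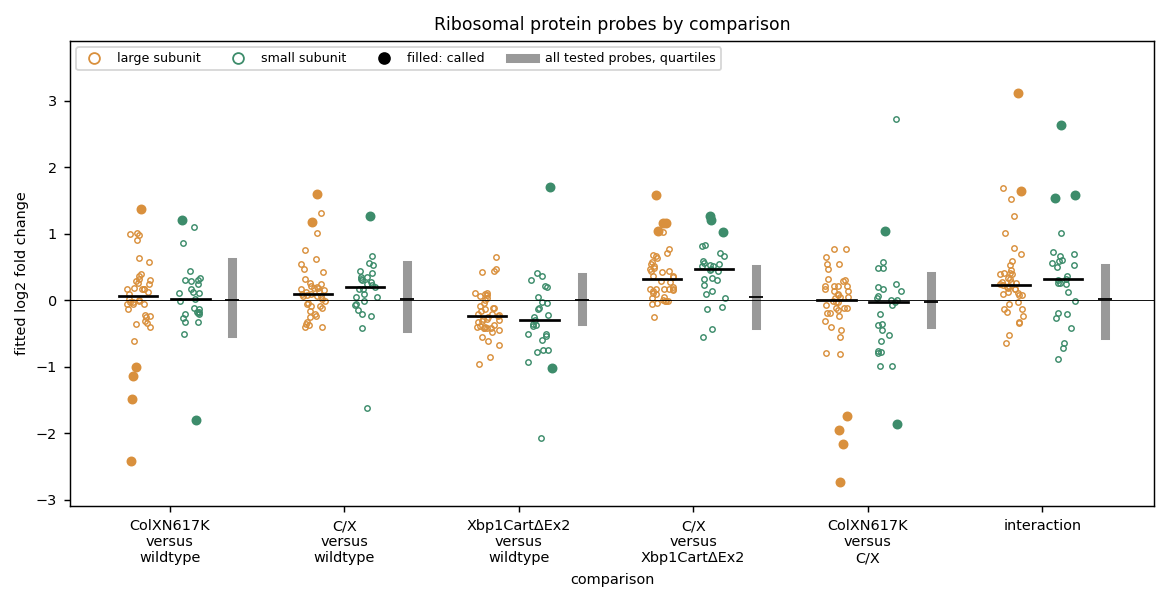
Each point is a ribosomal protein probe at its fitted log2 fold change, filled where called, with a line at the median of the subunit. Grey bars span the quartiles of all tested probes. The medians lie below 0 in Xbp1CartΔEx2 versus wildtype (-0.24 and -0.30) and above 0 in C/X versus Xbp1CartΔEx2 (0.31 and 0.46).

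In ColXN617K versus wildtype the called probes split, with 2 higher and 5 lower. These 7 are 10.1% of the 69, against 14.5% of all tested probes (7.31% higher, 7.16% lower). Rpl29, a basic protein at the surface of the large subunit whose loss in mice gives small stature, fell on both of its probes. The level of ILMN_2730005 was 9.33, 9.51 and 9.88 in wildtype, 9.50, 8.94 and 9.14 in Xbp1CartΔEx2, 6.98, 6.97 and 7.55 in ColXN617K, and 9.84, 9.71 and 10.16 in C/X. All 3 ColXN617K arrays lay below every other array, and only 1 of them was above background. This probe fell by 2.41 ± 0.24 (limma adjusted p = 2.95e-05), a size that rests mostly on ColXN617K readings at background. The brighter probe, ILMN_2857570, gave 13.50, 13.39 and 13.79 in wildtype, 13.69, 13.67 and 13.58 in Xbp1CartΔEx2, 12.31, 12.10 and 11.81 in ColXN617K, and 13.83, 13.86 and 13.75 in C/X. Again the ColXN617K arrays were the lowest without overlap, and the probe fell by 1.49 ± 0.19 (limma adjusted p = 0.000136). As the samples are bulk tissue, fewer cells that express a gene and less of its RNA per cell cannot be told apart in this or any later result.

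Rps4l, an autosomal copy related to the X-linked small subunit gene Rps4x, fell to a similar degree. Its probe ILMN_2737090 read 9.82, 9.16 and 9.59 in wildtype, 8.54, 9.05 and 8.63 in Xbp1CartΔEx2, 7.55, 7.35 and 8.26 in ColXN617K, and 9.48, 9.005 and 10.23 in C/X. ColXN617K lay below wildtype without overlap, Xbp1CartΔEx2 lay between them, and C/X overlapped wildtype. The fall was 1.81 ± 0.33 on the log2 scale (limma adjusted p = 0.00164), and without wildtype array 1 it was 1.66 with an adjusted p of 0.0101. Rps4x itself (ILMN_2948086, near the top of the scale) differed by -0.20 ± 0.19.

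Rpl30, which contacts the small subunit at the interface, read 10.56, 10.40 and 10.49 in wildtype, 11.08, 10.55 and 11.21 in Xbp1CartΔEx2, 9.38, 9.83 and 8.80 in ColXN617K, and 11.37, 11.54 and 11.58 in C/X on ILMN_2878430. ColXN617K was the lowest genotype and C/X the highest, with no overlap of either with wildtype. It fell by 1.15 ± 0.26 in ColXN617K (limma adjusted p = 0.00609). That call was lost when any 1 of 6 arrays (wildtype 1, 2 or 3, ColXN617K 1 or 3, or C/X 1) was left out, with values of -1.18 to -0.88 and adjusted p of 0.00927 to 0.0247.

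Rpl21 fell on the brightest of its 3 probes, ILMN_1225201, which read 9.02, 8.97 and 9.46 in wildtype, 8.84, 9.17 and 8.81 in Xbp1CartΔEx2, 8.24, 7.91 and 8.28 in ColXN617K, and 8.75, 8.65 and 9.43 in C/X. The ColXN617K arrays were below all others. The size was at the threshold, a fall of 1.01 ± 0.25 (limma adjusted p = 0.00885), and the call was lost when any 1 of 10 arrays was left out (all but ColXN617K 3 and C/X 3), with values of -1.09 to -0.85 and adjusted p of 0.0102 to 0.0429. The other Rpl21 probes, ILMN_1222250 and ILMN_2688863, were detected on 5 and 4 arrays and differed by 0.19 ± 0.23 and -0.25 ± 0.27.

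Rps15, which sits in the head of the small subunit, was 1 of the 2 probes that rose. It read 11.98, 12.04 and 11.71 in wildtype, 10.94, 11.07 and 10.64 in Xbp1CartΔEx2, 13.08, 13.06 and 13.21 in ColXN617K, and 12.16, 12.08 and 12.01 in C/X on ILMN_2671517. The genotypes formed 3 levels, with Xbp1CartΔEx2 lowest, wildtype and C/X in the middle with only C/X array 3 within the wildtype range, and ColXN617K highest. The rise in ColXN617K was 1.21 ± 0.18, or 2.31-fold (limma adjusted p = 0.000454). Rpl4, which lines the tunnel through which the new chain leaves the ribosome, read 8.89, 8.89 and 8.74 in wildtype, 8.54, 8.41 and 8.29 in Xbp1CartΔEx2, 10.14, 10.23 and 10.28 in ColXN617K, and 9.51, 9.94 and 8.90 in C/X on ILMN_2874507. ColXN617K lay above all other arrays and C/X array 3 alone was close to wildtype. The rise in ColXN617K was 1.38 ± 0.24, or 2.60-fold (limma adjusted p = 0.00107).

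Among the 5 genes with the highest values in ColXN617K, 3 were not called. Rpl13a, a large subunit protein that can leave the ribosome and silence inflammatory messenger RNAs in human myeloid cells, differed by 0.99 ± 0.23 and so missed the fold minimum (adjusted p = 0.0065). Rpl26 differed by 0.97 ± 0.26 and Rps3a1 by 1.10 ± 0.64. Rpl27, the fifth from the bottom, differed by -0.62 ± 0.16. Without wildtype array 1 the count of called probes was 4 in place of 7.

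**Figure D4:**
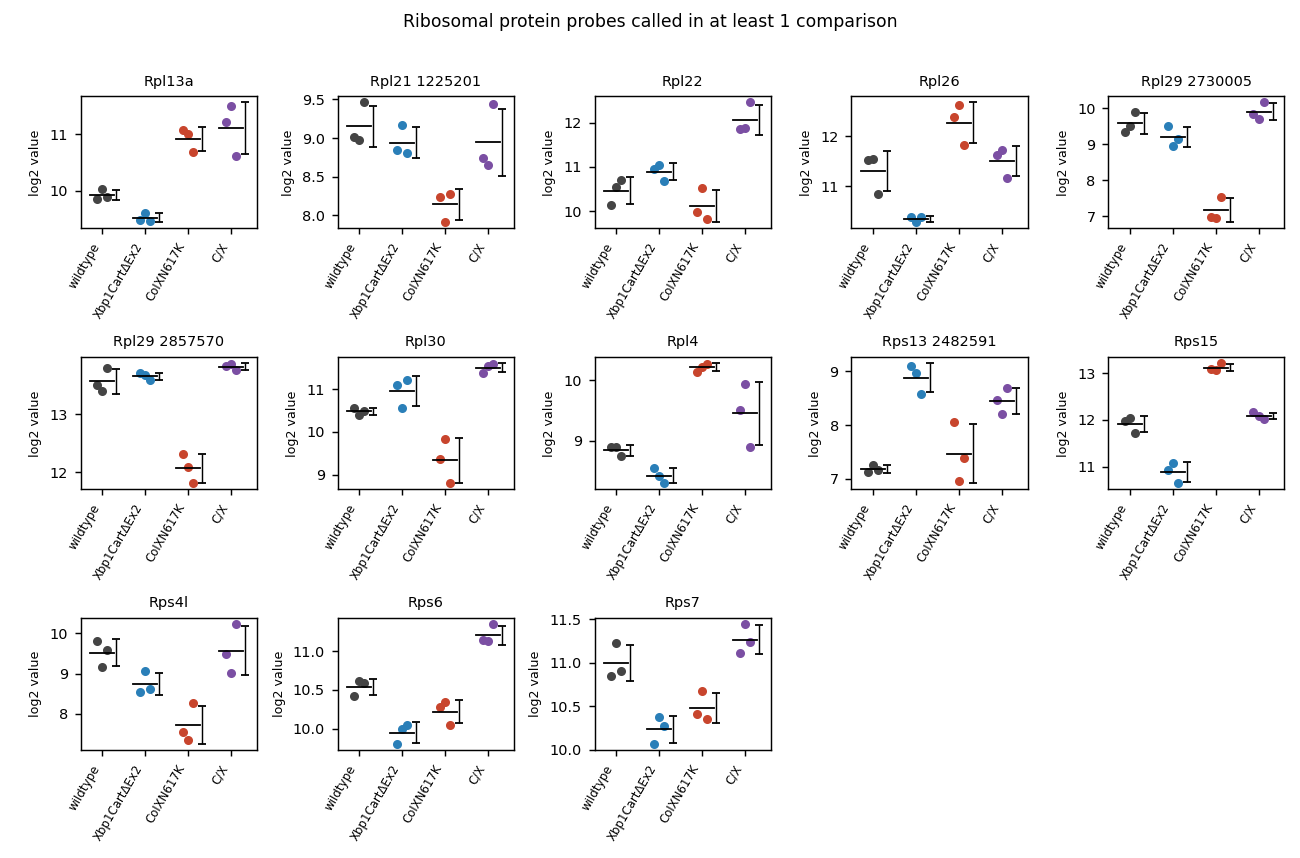
Points are the normalized log2 values of single arrays by genotype for the 13 probes called in at least 1 comparison, with the mean (line) and SD (bar) of 3. Rpl29, Rps4l and Rpl30 are lowest in ColXN617K, Rps15 and Rpl4 highest there, and Rpl22, Rps6 and Rps7 highest in C/X.

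In C/X versus wildtype 3 probes were called, all higher, which is 4.35% of the 69 against 11.7% of all tested probes (6.52% higher, 5.21% lower). Limma called 0 lower, and 12 of the 69 had an unadjusted p under 0.05 in either direction (4515 of the 12023 tested). Rpl22, an RNA-binding protein of the large subunit that is dispensable for general translation in mice but needed for T cell development, gave 10.13, 10.55 and 10.70 in wildtype, 10.95, 11.05 and 10.68 in Xbp1CartΔEx2, 9.98, 10.51 and 9.82 in ColXN617K, and 11.85, 11.87 and 12.46 in C/X on ILMN_2659229. The 3 C/X arrays were the highest of the 12, while wildtype overlapped both other genotypes. It rose by 1.60 ± 0.25, or 3.03-fold (limma adjusted p = 0.000783).

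Rpl13a read 9.86, 10.03 and 9.90 in wildtype, 9.49, 9.62 and 9.47 in Xbp1CartΔEx2, 11.08, 10.996 and 10.68 in ColXN617K, and 11.21, 11.50 and 10.62 in C/X on ILMN_2707834. Xbp1CartΔEx2 was lowest, wildtype next, and both collagen mutants were above wildtype without overlap. In C/X it rose by 1.18 ± 0.23 (limma adjusted p = 0.00267), a call lost without wildtype array 1 or 3 or C/X array 1 or 2, where values were 0.98 to 1.17 and adjusted p 0.012 to 0.0153. The third call was the dim probe ILMN_2482591 for Rps13, described with Xbp1CartΔEx2 below. Rpl30 differed by 1.01 ± 0.26 (adjusted p = 0.014), with no overlap between C/X and wildtype. Rplp0, the scaffold of the stalk that recruits elongation factors, differed by 0.76 ± 0.22, and Rps6 by 0.67 ± 0.18.

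The lowest value in C/X belonged to Rps3a1, at the small subunit's mRNA exit, with -1.62 ± 0.64 (adjusted p = 0.084). Next came Rps25 at -0.42 ± 0.26, Rpl3l at -0.40 ± 0.43, Rpl7l1 at -0.37 ± 0.20 and the brightest Rpl27a probe at -0.35 ± 0.18, none of them called. The count of 3 rested on few arrays. It was 1 without wildtype array 1 or 3 or C/X array 1, and 5 without ColXN617K array 3, which is no array of either genotype but enters the pooled spread. Without ColXN617K array 3 and C/X array 3 together it was also 5.

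In Xbp1CartΔEx2 versus wildtype 2 probes were called, 2.90% of the 69 against 1.76% of all tested probes (1.17% higher, 0.591% lower). Neither was for the large subunit, where 6 of 42 probes had an unadjusted p under 0.05 (2750 of the 12023 tested). Rps15 (values above) fell by 1.03 ± 0.18 (limma adjusted p = 0.00752), and all 3 Xbp1CartΔEx2 arrays were below all others. The value moved from -1.13 to -0.91 and the adjusted p from 0.0111 to 0.0421 when any 1 of 10 arrays (all but ColXN617K 3 and C/X 3) was left out, and each time the call was lost.

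The other call was on Rps13, an early-binding protein of the small subunit, through ILMN_2482591. This probe read 7.12, 7.27 and 7.17 in wildtype, 9.09, 8.98 and 8.59 in Xbp1CartΔEx2, 8.06, 6.96 and 7.39 in ColXN617K, and 8.46, 8.21 and 8.69 in C/X. No wildtype array was above background and all Xbp1CartΔEx2 and C/X arrays were, so the rise is a bound. It was at least 2.37-fold in Xbp1CartΔEx2 (limma adjusted p = 0.00393) and at least 1.76-fold in C/X (adjusted p = 0.00456), each the mean of the mutant arrays against the lowest level detected on the wildtype arrays or the probe's own, if higher. Leaving out any array of the compared genotypes ended the call in Xbp1CartΔEx2, with fitted values of 1.59 to 1.85 and adjusted p of 0.0113 to 0.0219. In C/X it ended without any wildtype array or C/X array 1 or 3, with values of 1.15 to 1.31 and adjusted p of 0.013 to 0.0193. The second Rps13 probe, ILMN_2940017, was detected on all 12 arrays and pointed the other way in Xbp1CartΔEx2, at -0.50 ± 0.19, with 0.04 ± 0.19 in C/X.

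Below Rps15 in size but without a call came Rpl26 at -0.96 ± 0.26 (adjusted p = 0.048), Rps25 at -0.93 ± 0.26 (adjusted p = 0.052) and the brightest Rpl31 probe at -0.86 ± 0.30 (adjusted p = 0.11). All 3 were lower on every Xbp1CartΔEx2 array than on any wildtype array. The 3 probes for Rpl31 spanned -0.86 to -0.14. Rps3a1 had the largest difference, -2.07 ± 0.64, and the arrays did not overlap, but its spread was wide. It read 9.32, 9.88 and 8.24 in wildtype, 7.41, 6.45 and 7.36 in Xbp1CartΔEx2, 10.98, 10.81 and 8.95 in ColXN617K, and 8.11, 8.25 and 6.21 in C/X on ILMN_2733330. Array 3 was the lowest of its genotype in wildtype, ColXN617K and C/X, and 2 of the 12 readings were not above background. The 5 highest genes, Rpl30 at 0.47 ± 0.26, Rpl22 at 0.43 ± 0.25, Rps27l at 0.40 ± 0.20, Rps2 at 0.36 ± 0.17 and Rps3 at 0.30 ± 0.21, were not called. The dimmer Rps3 probe pointed the other way, at -0.39.

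The comparison with the most one-sided change was C/X versus Xbp1CartΔEx2, in which 7 probes were called and all were higher in C/X. These are 10.1% of the 69, against 13.7% of all tested probes (6.06% higher, 7.60% lower). No probe was called lower by limma, and 25 of 69 had an unadjusted p under 0.05 in either direction (4492 of the 12023 tested). At an adjusted p of 0.05 and with no fold minimum 18 were higher and 0 lower. The 7 genes were Rpl4, Rpl13a, Rpl22 and Rpl26 of the large subunit and Rps6, Rps7 and Rps15 of the small subunit.

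The start sites of these 7 are shown from 100 bases before to 30 bases after the RefSeq start (GRCm38.p6, 5′ to 3′ on the gene's strand). The 7 were picked by their calls here, so their shared direction is no result. In ColXN617K versus wildtype the differences of Rpl4, Rpl13a, Rpl26 and Rps15 were above 0 and those of Rpl22, Rps6 and Rps7 below 0. Capitals mark 4 motifs or their reverse complements: CTTTCC, a core often seen in TOP tracts, CCGGAAG, an ETS site, AAGATGG, the YY1 core, and GGGCGG, the GC box.
Rpl4 (chr9:64173287-64173416, plus strand): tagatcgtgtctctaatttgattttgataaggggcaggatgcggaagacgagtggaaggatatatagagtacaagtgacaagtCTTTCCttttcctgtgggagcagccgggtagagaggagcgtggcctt
Rpl13a (chr7:45128716-45128845, minus strand): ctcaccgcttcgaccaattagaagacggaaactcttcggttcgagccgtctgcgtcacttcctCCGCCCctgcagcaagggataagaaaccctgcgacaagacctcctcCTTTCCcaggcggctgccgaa
Rpl22 (chr4:152325626-152325755, plus strand): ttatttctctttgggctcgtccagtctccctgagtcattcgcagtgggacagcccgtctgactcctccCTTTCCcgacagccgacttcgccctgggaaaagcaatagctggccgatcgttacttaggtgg
Rpl26 (chr11:68901466-68901595, plus strand): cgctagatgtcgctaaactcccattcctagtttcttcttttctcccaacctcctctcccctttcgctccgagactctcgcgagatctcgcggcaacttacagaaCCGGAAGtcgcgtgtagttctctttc
Rps6 (chr4:86857338-86857467, minus strand): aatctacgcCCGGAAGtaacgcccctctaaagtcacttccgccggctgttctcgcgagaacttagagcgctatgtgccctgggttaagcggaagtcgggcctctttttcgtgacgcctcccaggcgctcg
Rps7 (chr12:28635924-28636053, minus strand): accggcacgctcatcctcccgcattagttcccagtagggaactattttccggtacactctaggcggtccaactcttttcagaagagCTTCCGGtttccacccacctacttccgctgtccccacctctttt
Rps15 (chr10:80292331-80292460, plus strand): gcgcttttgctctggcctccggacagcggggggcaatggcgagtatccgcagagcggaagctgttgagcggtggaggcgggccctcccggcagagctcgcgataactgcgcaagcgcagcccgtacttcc
In these stretches CTTTCC occurred in Rpl4, Rpl13a and Rpl22, CCGGAAG or its complement in Rpl26, Rps6 and Rps7, the complement of GGGCGG in Rpl13a, and none of the 4 in Rps15. The longest run of pyrimidines between 10 bases before and 20 after the start was 14 in Rpl13a, 10 in Rps6, 6 in Rpl4, 5 in Rps7 and 3 in the other 3. Runs were counted only inside that window. The run in Rpl4 begins before it and was counted in part, and longer runs in Rpl22 and Rpl26 lie outside it. Of the 52 genes 43 had a start region in the RefSeq table. In the whole 300 base windows, counting both strands, CTTTCC was in 48.8% of them and in 26.3% of 27025 mouse start regions, CCGGAAG in 44.2% and 9.12%, AAGATGG in 11.6% and 6.48%, and GGGCGG in 60.5% and 35.9%. Matches of different motifs shared letters in 2 of the 43 windows. A run of at least 6 pyrimidines at the start, counted only inside the same short window, was present in 53.5% of them and in 28.6% of all. These are matches of letters and were not tested as sites.

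Rpl13a had the largest rise, 1.58 ± 0.23 or 3.00-fold (limma adjusted p = 0.000345). Rps6, the small subunit protein phosphorylated by the S6 kinases after mTOR activation, read 10.43, 10.62 and 10.59 in wildtype, 9.80, 9.99 and 10.05 in Xbp1CartΔEx2, 10.27, 10.34 and 10.05 in ColXN617K, and 11.14, 11.13 and 11.35 in C/X on ILMN_2893077. The C/X arrays were the highest, then wildtype, and Xbp1CartΔEx2 was lower than wildtype without overlap. It rose by 1.26 ± 0.18, or 2.40-fold (limma adjusted p = 0.000275).

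Rps15 rose by 1.20 ± 0.18 (limma adjusted p = 0.000512), from the lowest level of any genotype to one that overlapped wildtype. Rps7, which also binds the p53 regulator MDM2, read 10.84, 11.23 and 10.90 in wildtype, 10.06, 10.37 and 10.27 in Xbp1CartΔEx2, 10.41, 10.68 and 10.35 in ColXN617K, and 11.11, 11.44 and 11.24 in C/X on ILMN_2916116. Xbp1CartΔEx2 and ColXN617K were both below wildtype without overlap, and C/X overlapped wildtype. The rise was 1.03 ± 0.19 (limma adjusted p = 0.00192), and it ended at 0.94 without Xbp1CartΔEx2 array 1 or C/X array 2 (adjusted p 0.0104 to 0.0117).

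Rpl26, which binds the p53 messenger RNA, read 11.53, 11.53 and 10.84 in wildtype, 10.37, 10.27 and 10.38 in Xbp1CartΔEx2, 12.38, 12.62 and 11.83 in ColXN617K, and 11.62, 11.73 and 11.16 in C/X on ILMN_2737941. Xbp1CartΔEx2 was below all other arrays, and C/X overlapped wildtype. The rise was 1.16 ± 0.26 (limma adjusted p = 0.00619). Rpl22 rose by 1.17 ± 0.25 (adjusted p = 0.00489) and Rpl4 by 1.04 ± 0.24 (adjusted p = 0.00657), both without overlap. Each of these 3 calls was lost with single arrays left out: Rpl26 without C/X 1 or 2 or any Xbp1CartΔEx2 array (1.05 to 1.18, adjusted p 0.0196 to 0.0297), Rpl22 without any array of the compared genotypes (0.97 to 1.27, adjusted p 0.0109 to 0.0276), and Rpl4 without any of 9 arrays (all but ColXN617K 2 and 3 and C/X 3, 0.79 to 1.10, adjusted p 0.0101 to 0.0326). The count of 7 was 4 without C/X array 1 or Xbp1CartΔEx2 array 2 or 3, and 3 without Xbp1CartΔEx2 array 1 or C/X array 2.

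In ColXN617K versus C/X 6 probes were called, 1 higher and 5 lower, which is 8.70% of the 69 against 5.26% of all tested probes (1.93% higher, 3.34% lower). Both Rpl29 probes were lower in ColXN617K, by -2.74 ± 0.24 on ILMN_2730005 (limma adjusted p = 6.74e-05) and -1.74 ± 0.19 on ILMN_2857570 (adjusted p = 0.000236), of which the former was above background on only 1 of the 3 ColXN617K arrays. Rpl30 differed by -2.16 ± 0.26 (adjusted p = 0.000405), Rpl22 by -1.96 ± 0.25 (adjusted p = 0.000572) and Rps4l by -1.85 ± 0.33 (adjusted p = 0.00377). In each of these the 3 ColXN617K arrays lay below the 3 C/X arrays, which overlapped wildtype in Rpl29 and Rps4l and lay above it in Rpl30 and Rpl22.

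Rps15 was the only probe called higher, at 1.03 ± 0.18 (limma adjusted p = 0.00355). That call was lost without any 1 array of the compared genotypes, with values of 0.99 to 1.07 and adjusted p of 0.00423 to 0.0147. The Rps4l call was lost without ColXN617K array 1 or 2 or C/X array 1 or 3, with values of -1.90 to -1.53 and adjusted p of 0.0123 to 0.0182. Rps3a1 had the largest value, 2.72 ± 0.64, with no overlap between the arrays, and an adjusted p of 0.015 that missed the threshold. Rps6 at -0.99 ± 0.18 (adjusted p = 0.0037) missed only the fold minimum.

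The interaction is the effect of the collagen mutation without XBP1 (C/X minus Xbp1CartΔEx2) less its effect with XBP1 (ColXN617K minus wildtype). In limma 5 probes passed, all with a positive value, which is 7.25% of the 69 against 1.71% of all tested probes (0.957% positive, 0.749% negative). None was called negative, and 16 of 69 had an unadjusted p under 0.05 in either direction (2901 of the 12023 tested). The values were 3.12 ± 0.34 and 1.65 ± 0.27 for the Rpl29 probes, 2.64 ± 0.47 for Rps4l, 1.58 ± 0.25 for Rps6 and 1.54 ± 0.27 for Rps7. The mutation took ILMN_2730005 for Rpl29 from 9.58 to 7.17 with XBP1 present, where only 1 of the 3 mutant arrays was above background, and from 9.19 to 9.90 without it. Rps6 went from 10.54 to 10.22 with XBP1 and from 9.95 to 11.21 without it, and Rps7 from 10.99 to 10.48 and from 10.23 to 11.27. In all 3 genes the direction of the mean difference thus turned between the XBP1 backgrounds. The count was 1 when any array of wildtype or Xbp1CartΔEx2, ColXN617K array 2 or C/X array 1 was left out, 2 without ColXN617K array 1 or C/X array 2, and 3 without C/X array 3.

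Of the probes near the top of the scale none was called. They stand for Rpl3, Rpl9, Rpl23, Rpl28, Rpl32, Rpl35, Rpl37, Rpl38, Rpl41, Rplp1 and Rplp2 of the large subunit and Rps2 (both probes), Rps4x, Rps9, Rps12, Rps14, Rps19, Rps24, Rps26 and Rps29 of the small subunit. Their median absolute difference in ColXN617K versus wildtype was 0.13, against 0.33 for the 48 probes below the top. In Xbp1CartΔEx2 versus wildtype it was 0.16 against 0.41, and in C/X versus Xbp1CartΔEx2 0.29 against 0.50. Limma called 0 of the 21 in any of the 6 comparisons, where between 1 and 4 had an unadjusted p under 0.05 (2750 to 5081 of the 12023 tested). The 118 other tested probes in the same band had a median absolute difference of 0.21 in ColXN617K versus wildtype, with 1 called, and 0.14 in Xbp1CartΔEx2 versus wildtype, with 1 called. In C/X versus wildtype they had 0.24 with 4 called, against 0.13 for the 21, and in C/X versus Xbp1CartΔEx2 0.22 with 6 called, all lower, against 0.29 for the 21. In this last comparison 13 of the 21 (61.9%) were higher in C/X without overlap and 2 (9.52%) lower. Of the 118 others 35 (29.7%) were higher without overlap and 28 (23.7%) lower, and of all tested probes 23.1% and 21.2%. A probe near the top may be close to the limit of its intensity, and how far that compressed these differences was not tested. With the 21 left out, the median in Xbp1CartΔEx2 versus wildtype was -0.37 and in C/X versus Xbp1CartΔEx2 0.48.

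The widest gap in this band was in Rps2, at the mRNA entry of the small subunit, which differed by -0.80 ± 0.21 in ColXN617K versus C/X on ILMN_2946616 and by 0.06 ± 0.17 on its other probe. Rps24 (ILMN_3126986) read 13.72, 13.97 and 13.75 in wildtype, 13.35, 13.25 and 13.23 in Xbp1CartΔEx2, 13.74, 13.78 and 13.90 in ColXN617K, and 13.81, 13.89 and 13.70 in C/X. Its Xbp1CartΔEx2 arrays lay below all others, a difference of -0.54. Rplp2, an acidic stalk protein, read 13.58, 13.65 and 13.44 in wildtype, 13.09, 12.96 and 13.25 in Xbp1CartΔEx2, 13.92, 13.63 and 13.62 in ColXN617K, and 13.68, 13.67 and 13.69 in C/X on ILMN_2924136 and was likewise lowest in Xbp1CartΔEx2 without overlap, at -0.45 ± 0.17 from wildtype. The other acidic stalk protein, Rplp1, stayed between 14.15 and 14.51 on all 12 arrays. None of these was called.

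**Figure D5:**
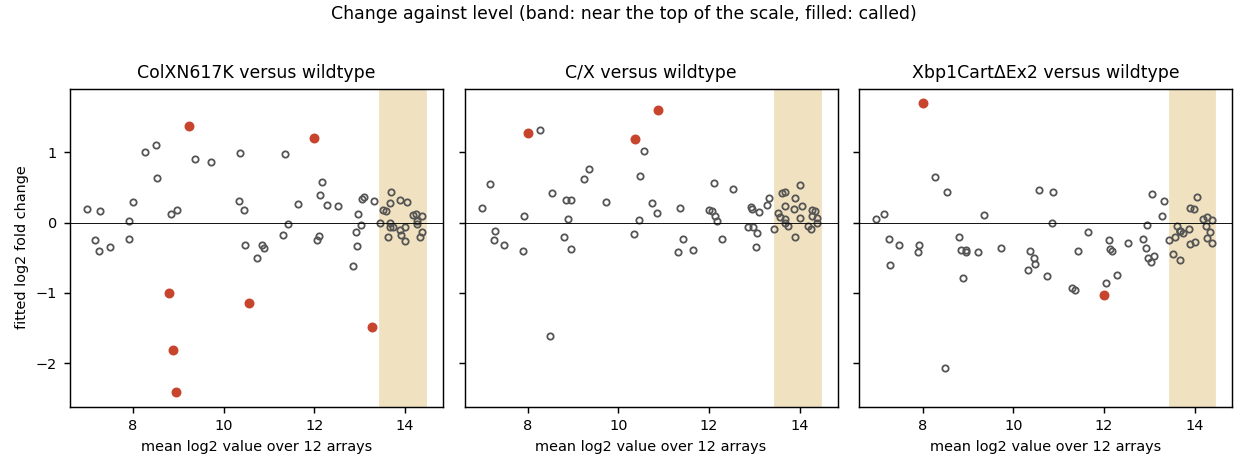
The fitted log2 fold change of each ribosomal protein probe is plotted against its mean log2 value over 12 arrays for the 3 comparisons with wildtype, filled where called, with the band within 1 log2 unit of the brightest tested probe shaded. No filled point lies in the band.

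Several probes for 1 gene did not always give 1 answer. Of 14 genes with at least 2 tested probes, 3 had probes that differed by 1 or more in a comparison with wildtype. They were Rpl21 and Rps13, given above, and Rpl27a. The dim Rpl27a probe ILMN_2882059, detected on 10 arrays, read 7.25, 7.58 and 7.77 in wildtype, 7.96, 8.36 and 8.21 in Xbp1CartΔEx2, 8.93, 8.92 and 7.76 in ColXN617K, and 8.98, 9.29 and 8.28 in C/X. Against wildtype, where 1 array was above background, the ColXN617K value was 1.00 ± 0.34, the C/X value 1.31 ± 0.34 and the Xbp1CartΔEx2 value 0.64 ± 0.34. The brightest, ILMN_2641304, differed by -0.03 ± 0.18, -0.35 ± 0.18 and -0.56 ± 0.18. Neither was called. Many ribosomal protein genes have near-identical processed pseudogenes elsewhere in the genome, and the probe sequences were not used here, so signal from such copies is uncertain for every probe.

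Of the paralogues that a symbol search takes in, 4 were tested. Rpl3l, a form of Rpl3 found in muscle, was detected on 11 arrays and differed from wildtype by -0.23 ± 0.43 (ColXN617K), -0.40 ± 0.43 (C/X) and -0.42 ± 0.43 (Xbp1CartΔEx2), while Rpl3 differed by -0.06 ± 0.19, -0.05 ± 0.19 and -0.16 ± 0.19. Rpl7l1, a relative of Rpl7 that acts in ribosome assembly, differed by 0.17 ± 0.20, -0.37 ± 0.20 and -0.42 ± 0.20. Rps27l, a p53-inducible relative of Rps27, differed by 0.33 ± 0.20, -0.15 ± 0.20 and 0.40 ± 0.20. None of these was called in any comparison. Rps4l is the exception among the paralogues, called between ColXN617K and either wildtype or C/X, and in the interaction. Of the stalk, Rplp0 (ILMN_2744356) read 8.87, 9.03 and 8.85 in wildtype, 8.88, 8.62 and 9.55 in Xbp1CartΔEx2, 9.76, 9.91 and 9.80 in ColXN617K, and 9.65, 9.68 and 9.71 in C/X. All ColXN617K and C/X arrays were above all wildtype arrays, at 0.90 ± 0.22 (adjusted p = 0.0098) and 0.76 ± 0.22 (adjusted p = 0.027), short of the fold minimum.

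Other genes whose messenger RNAs carry a TOP tract, mostly elongation factors and RNA-binding proteins, had 13 of 19 listed members tested. Limma called 0 of them in any of the 6 comparisons, and 1, 3, 1, 4, 2 and 4 had an unadjusted p under 0.05 in ColXN617K, C/X and Xbp1CartΔEx2 versus wildtype, C/X versus Xbp1CartΔEx2, ColXN617K versus C/X and the interaction. Their median was -0.07 in Xbp1CartΔEx2 versus wildtype and 0.41 in C/X versus Xbp1CartΔEx2, beside -0.25 and 0.36 for the ribosomal protein probes. Of 23 regulators of TOP translation and of ribosomal protein genes 13 were tested, and limma called 1, 1, 0, 2, 2 and 0 of them in the same order. Sesn2, a stress-induced inhibitor of mTORC1, rose in C/X by 2.15 ± 0.27 versus wildtype (adjusted p = 0.00015) and 1.92 ± 0.27 versus Xbp1CartΔEx2, and was lower in ColXN617K than in C/X by -1.39 ± 0.27. Eif4ebp1, the repressor of cap-dependent initiation that mTORC1 inactivates, rose by 1.60 ± 0.34 when ColXN617K was compared with wildtype, and by 1.51 ± 0.34 when C/X was compared with Xbp1CartΔEx2. Larp4b, an RNA-binding protein that stabilises messenger RNAs, was lower in ColXN617K than in C/X, by -1.32 ± 0.24. The other 10 were not called in any comparison.

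Markers of other cells moved with the genotypes. Of 5 tested hypertrophic chondrocyte markers all were called lower than wildtype in ColXN617K and 4 of them in C/X, and their mean level was 12.76 to 12.91 on wildtype, 12.57 to 13.01 on Xbp1CartΔEx2, 9.94 to 10.55 on ColXN617K and 10.56 to 10.78 on C/X arrays. The Col10a1 probe alone read 11.75, 12.47 and 11.97 in wildtype and 8.43, 8.48 and 9.78 in ColXN617K. In Xbp1CartΔEx2 versus wildtype the endothelial marker Pecam1 was called higher (1.85 ± 0.31) and the erythroid genes Hbb-b2 (-4.07 ± 0.30) and Alas2 (-1.87 ± 0.26) lower. Of 4 endothelial markers 3 were called lower in both collagen mutants, and their mean was 8.93 to 9.81 in wildtype, 10.30 to 11.10 in Xbp1CartΔEx2, 6.70 to 7.02 in ColXN617K and 6.80 to 7.94 in C/X. The 3 erythroid markers were all called lower in both collagen mutants. Their mean was 10.70 to 11.69 in wildtype, 8.54 to 8.71 in Xbp1CartΔEx2, 7.82 to 8.29 in ColXN617K and 7.35 to 7.83 in C/X. Of 5 osteoclast and macrophage markers 3 were called lower in ColXN617K and 1 in C/X, with means of 9.98 to 10.58 in wildtype, 10.42 to 10.72 in Xbp1CartΔEx2, 8.56 to 9.15 in ColXN617K and 8.74 to 9.76 in C/X. The 2 tested osteoblast markers had means of 7.73 to 8.49 in wildtype, 9.03 to 10.00 in Xbp1CartΔEx2, 7.28 to 8.54 in ColXN617K and 7.13 to 7.59 in C/X. They were highest in Xbp1CartΔEx2 without overlap, and 0 were called against wildtype. The mean of the 6 chondrocyte markers stayed between 12.17 and 13.44 on all arrays, with 1 of them called lower than wildtype in C/X. Over 3 arrays they were detected 18 times in wildtype and 17 times in each collagen mutant. In C/X versus Xbp1CartΔEx2 all 4 endothelial, 4 of 5 hypertrophic chondrocyte and 3 of 5 osteoclast and macrophage markers were called lower. So were 2 of 3 erythroid, 1 of 2 osteoblast and 1 of 6 chondrocyte markers, and 0 were called higher. The part of these cells in the ribosomal protein differences was not tested.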

How the data were processed

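Total RNA was amplified in 2 rounds and hybridized to Illumina mouse arrays. The authors deposited unnormalized probe intensities with a detection score for each of 45281 probes, headed as a p-value although high scores mark bright probes. They also deposited log2 values that they had background-corrected and quantile-normalized with limma, version not given in the sources used here. From the deposited intensities the log2 values were recomputed by neqc (limma 3.58.1, R 4.3.3, offset 16), which differed from the authors' by at most 0.03, and the 12023 probes that scored above 0.95 on 3 or more arrays were tested. The limma fit had 1 mean per genotype over all 12 arrays, with p-values adjusted by Benjamini-Hochberg. Numbers of detected probes and of arrays limit the precision. The p-values rest on the spread between mice within genotypes, pooled over all 12 arrays and moderated across probes.

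Members and lists were chosen with earlier results of these data known. Named were every probe called in any comparison, the 5 highest and 5 lowest genes in each mutant against wildtype by their brightest probe, genes whose probes differed by 1 or more, stalk proteins and paralogues. Annotation covered 10074 probes. Alternatives were other scalings, background corrections, detection filters, thresholds and moderation, the authors' values, single arrays left out, and a replicate block. Deviations from the genotype means correlated at 0.37, 0.60 and 0.66 between same-numbered ColXN617K and C/X arrays. Differently numbered arrays also correlated, C/X 1 with ColXN617K 2 at 0.43 and C/X 2 with ColXN617K 1 at 0.51. Array 3 of either genotype correlated at -0.63 to -0.45 with arrays 1 and 2 of the other. The values therefore do not show a pairing by number. The fit was tested on simulated data.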

Additional observations from a re-analysis of the deposited data

Results flagged for a closer look

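The effect of the collagen mutation differed between mice with and without XBP1 for 5 probes by the limma interaction, each with an adjusted p of at most 0.01 and the differences given on the log2 scale. For Rpl29 the interaction was 3.12 (adjusted p = 0.00116) on ILMN_2730005 and 1.65 (adjusted p = 0.00542) on ILMN_2857570. On ILMN_2730005 only 1 of the 3 ColXN617K arrays was above background, so that level rests mostly on readings at background. Rps4l had 2.64 (adjusted p = 0.00822), Rps6 1.58 (adjusted p = 0.00457) and Rps7 1.54 (adjusted p = 0.00795). Leaving out single arrays ended the calls of Rps4l (all arrays but ColXN617K 3 and C/X 2, 2.31 to 2.82, adjusted p 0.0129 to 0.0287), Rpl29 on ILMN_2857570 (all but ColXN617K 1 and 3 and C/X 3, 1.53 to 1.73, adjusted p 0.0111 to 0.0238), Rps6 (all but ColXN617K 3 and C/X 3, 1.51 to 1.64, adjusted p 0.0107 to 0.0155) and Rps7 (all but ColXN617K 3, 1.42 to 1.64, adjusted p 0.014 to 0.0266). The call of Rpl29 on ILMN_2730005 held whichever array was left out. Under scaling to the array median in place of quantile normalization all 5 calls were lost.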

How the results depend on the processing

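Of 30 called differences (13 probes) tried under 625 alternatives in all, 447 kept the call, 177 kept the direction without it, and 1 turned: Rpl21 on ILMN_1225201 in ColXN617K versus wildtype was 0.023 under scaling to the array median. The counts and medians that follow are in the order ColXN617K, C/X and Xbp1CartΔEx2 versus wildtype, C/X versus Xbp1CartΔEx2, ColXN617K versus C/X and the interaction. Median scaling gave 2, 0, 0, 0, 1 and 0 called probes and median differences of 0.74, 0.29, 0.0060, 0.24, 0.62 and -0.55. An adjusted p of 0.05 with no fold minimum gave 13, 7, 4, 18, 16 and 7 probes. Leaving out arrays gave 4 to 10, 1 to 5, 0 to 3, 3 to 9, 4 to 6 and 1 to 7 probes, and medians of 0.021 to 0.081, 0.061 to 0.21, -0.28 to -0.24, 0.32 to 0.42, -0.092 to 0.016 and 0.23 to 0.30, where leaving out ColXN617K 3 and C/X 3 together was chosen after seeing the data. In Xbp1CartΔEx2 versus wildtype the count was 0 without any wildtype or Xbp1CartΔEx2 array and 1 without C/X 1 or 2 or ColXN617K 1 or 2. Without background correction 3, 1, 0 and 4 probes were called in the comparisons up to C/X versus Xbp1CartΔEx2. With no detection filter 1 was called in Xbp1CartΔEx2 versus wildtype and 4 in C/X versus Xbp1CartΔEx2, and with only the genotypes of the comparison in the fit 1 each in Xbp1CartΔEx2 versus wildtype and ColXN617K versus C/X. The median in ColXN617K versus wildtype was 0.095 with a detection score above 0.99, 0.10 with all probes of a gene averaged, and 0.12 without the probes near the top, which gave -0.37 in Xbp1CartΔEx2 versus wildtype and 0.48 in C/X versus Xbp1CartΔEx2. The cause was not tested. The authors' own log2 values kept all 30 calls.

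In each pair of genotypes other than ColXN617K and C/X, at least 1 correlation between the deviations of same-numbered arrays was under 0.1 (-0.33 to 0.33 over those pairs). With the number as a replicate block 7 probes were called in ColXN617K versus C/X in place of 6. In Xbp1CartΔEx2 versus wildtype 1 probe was called, as Rps15 missed at -1.03 (limma adjusted p = 0.0101). The block changed no other of the 30 calls. No slide is given, so a slide block was not run, and the interaction could not be fitted on 2 genotypes alone.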
